A study of Rattus norvegicus with 42 samples.

Results

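The transcripts of Disc1, of the proteins that bind it and of neuregulin signalling were examined in the hippocampus of male Sprague Dawley rat pups after a single neonatal dose of an anti-seizure medication. The members were Disc1, Nde1, Ndel1, Fez1, Pde4b, Dtnbp1, Nrg1, Nrg3 and Erbb4, taken by gene symbol from the deposited counts. Of these 9 genes, 8 were listed, with 15 of the 15516 listed transcripts, and Nrg3 was not analysed here. Nrg1 had 8 of the 15 transcripts and each of the other genes had 1. A total of 10 member transcripts passed the filter on low counts, including 3 of Nrg1, so every listed gene was tested with at least 1 transcript. Pups were injected intraperitoneally at postnatal day 7 with saline (VEH), phenobarbital (PB, 75 mg/kg, a positive modulator of GABA-A receptors) or levetiracetam (LEV, 200 mg/kg, a ligand of the synaptic vesicle protein SV2A), and hippocampi were taken 72 h later. There were 13 VEH, 14 PB and 14 LEV animals, with 1 library per animal, after 1 VEH animal marked as excluded in its label was left out. Library totals were 9499492 to 14488134 estimated counts in VEH, 9586794 to 13140913 in PB and 10112050 to 12482915 in LEV animals. All groups were wild type and from a single age, and pups came from litters bought in 2 orders.

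Disc1 is a scaffold protein of the centrosome, mitochondria and synapse that was found at a chromosomal breakpoint in a family with psychiatric illness. Nde1 and Ndel1 couple it to the dynein motor, Fez1 links it to kinesin transport and axon outgrowth, and the phosphodiesterase Pde4b, which it binds, degrades cAMP. Dysbindin (Dtnbp1) belongs to the BLOC-1 complex of endosomal sorting, and the neuregulins Nrg1 and Nrg3 are ligands of the receptor tyrosine kinase Erbb4, which in the hippocampus is found mainly in GABAergic interneurons.

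Sample codes came in 2 forms, one for animals 1 to 6 and one for animals 7 to 14 of each group. This form was the only batch-like label, and it is called the series here. What it stands for is not given in the sources used here. It was an additive term in the fits over all animals, and both series held all 3 groups. Of all transcripts tested, 30.2% differed between the series at an adjusted p under 0.05. Among the members this was so for Dtnbp1 and for Nrg1 NM_001271130.

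The members lie on 7 chromosomes in rn6, the build of the deposited coordinates. Disc1 spans chr19:57820260-58066156, Erbb4 chr9:75021808-76178937 and Nrg1 chr16:62969988-64057435. Pde4b spans chr5:121759236-122136815, Fez1 chr8:39305128-39350271 and Dtnbp1 chr17:20090136-20182332. Nde1 (chr10:860521-896939) and Ndel1 (chr10:55411890-55444721) share a chromosome. No member overlapped another listed gene, and the nearest to Disc1 was Tsnax, which ended 34692 bases before it. RefSeq promoter sequences (GRCr8) were held for 8 member genes, Nrg3 included and Nrg1 not, in 9 windows. The motif GGGCGG, searched on both strands in the 250 bases before the start, was in 7 of the 9 windows and in 30.5% of all 33469 promoters. The windows without it were that of Nde1 and 1 of the 2 of Pde4b. GC content over the full promoter sequences was 37.0% (Nde1) to 77.0% (Nrg3), with 62.3% for Disc1 and 70.3% for Erbb4. The median over all promoters was 51.7%. The motif holds only G and C, and the part of GC content in its frequency was not tested. The promoters of Disc1 (chr19:69911726-69911975, plus strand) and Erbb4 (chr9:78045607-78045856, minus strand), the 2 genes on which the comparisons below turn, are shown 5′ to 3′, with the motif or its reverse complement in capitals.
Disc1: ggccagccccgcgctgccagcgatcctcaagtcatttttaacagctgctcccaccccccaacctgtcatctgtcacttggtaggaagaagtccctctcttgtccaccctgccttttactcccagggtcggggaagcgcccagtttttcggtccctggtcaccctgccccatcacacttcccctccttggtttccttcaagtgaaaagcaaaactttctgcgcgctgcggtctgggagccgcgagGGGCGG
Erbb4: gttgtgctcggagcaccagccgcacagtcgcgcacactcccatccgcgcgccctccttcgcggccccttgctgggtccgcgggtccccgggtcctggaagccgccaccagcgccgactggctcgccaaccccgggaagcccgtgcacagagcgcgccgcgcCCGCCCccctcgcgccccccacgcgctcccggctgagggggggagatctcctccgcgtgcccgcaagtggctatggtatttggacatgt
Each window held 1 match, and a match describes these letters and no binding.

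The first question was whether either drug altered the abundance of these transcripts. A transcript counted as differentially expressed at an adjusted p under 0.05 (edgeR's quasi-likelihood test, Benjamini-Hochberg over 13062 transcripts) with a difference of at least 25% of the lower group (the fold limit). Of the 10 member transcripts, 0 met both limits between PB and VEH, where 0.605% of all transcripts did. Likewise 0 members met them between LEV and VEH, against 0% of all transcripts, and 0 between PB and LEV, against 0.582%. At an unadjusted p under 0.05, 2 member transcripts (Disc1 and Ndel1) differed between PB and VEH in the edgeR fit, 0 between LEV and VEH, and 2 (Disc1 and Ndel1) between PB and LEV, against 20.2%, 5.84% and 19.6% of all transcripts. Among members with an adjusted p, DESeq2 gave 0 past both limits in each comparison. It gave no adjusted p for Disc1 between PB and either other group. DESeq2 therefore could not decide whether Disc1 met the limits there.

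**Figure D1:**
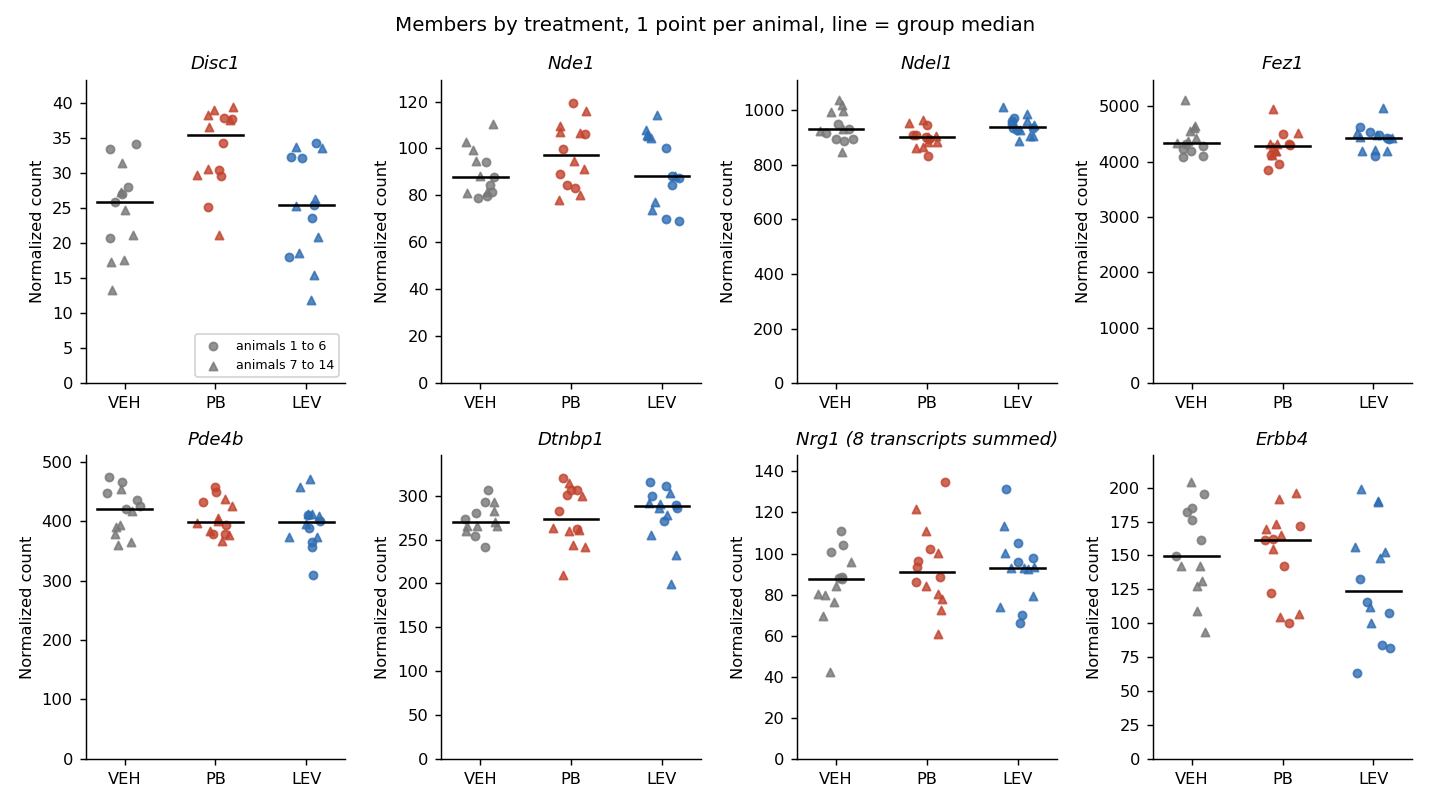
Normalized counts of the 8 member genes in each animal (1 point per animal, circles for animals 1 to 6 and triangles for animals 7 to 14, line at the group median) for VEH, PB and LEV, on axes that start at 0. Disc1 points lie higher in PB (median 35.5) than in VEH (25.8) and LEV (25.4), and the 3 groups overlap in every panel.

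Disc1 was higher after PB, by an amount that missed the adjusted threshold. The study, which removed batch effects and their interaction with treatment before DESeq2, reports increased Disc1 transcript levels after PB in these animals. In the edgeR fit here, Disc1 did not pass both limits. The study's order of steps, run as an alternative (closing sections), gave no adjusted p for Disc1 between PB and VEH. The study's call could therefore not be checked on like terms. Between PB and LEV that order gave an adjusted p of 0.0586 in DESeq2. Normalized counts of Disc1 were 13.4 at the lowest, 25.8 at the median and 34.2 at the highest in VEH animals, 21.1, 35.5 and 39.5 in PB animals, and 11.9, 25.4 and 34.3 in LEV animals. The PB animals thus lay mostly at the top of the VEH and LEV ranges, with overlap at every side. VEH animals averaged 24.8 ± 6.46 (SD, n = 13), PB animals 33.4 ± 5.69 (SD, n = 14) and LEV animals 25.1 ± 7.43 (SD, n = 14).

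Disc1 was 1.36-fold higher in PB than in VEH (95% interval 1.11 to 1.66, log2 fold change 0.44, SE 0.14), with an unadjusted p of 0.00358 and an adjusted p of 0.0584 in edgeR. In 12 of 14 PB animals it exceeded the mean of the VEH animals in the same series. Against LEV it was 1.33-fold higher (1.10 to 1.62), with an adjusted p of 0.0764 in edgeR and 12 of 14 PB animals above the LEV mean. LEV and VEH differed by 0.03 on the log2 scale (SE 0.15, adjusted p = 0.990 in edgeR), and the interval of that ratio, 0.830 to 1.248, lay within the fold limit. In the separate series, the log2 fold change of PB against VEH was 0.20 (SE 0.18) in animals 1 to 6 and 0.64 (SE 0.22) in animals 7 to 14, with adjusted p of 0.701 and 0.0918 in edgeR. The 2 values differed by 0.44 (SE 0.29, adjusted p = 0.609 in the edgeR interaction test).

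The adjusted p of Disc1 sat close enough to the threshold for single animals to decide it. Between PB and VEH it fell under 0.05 in 6 of 41 fits that each left out 1 animal. The adjusted p was 0.0499 without VEH animal 5, 0.0434 without VEH animal 14, 0.0404 without PB animal 4, 0.0449 without PB animal 5, 0.0382 without PB animal 13 and 0.0461 without LEV animal 9, all in edgeR. Between PB and LEV it was 0.0496 without PB animal 13, 0.0489 without LEV animal 7 and 0.0451 without LEV animal 8. Over all 41 fits the adjusted p in edgeR ran from 0.0382 to 0.102 between PB and VEH, and from 0.0451 to 0.136 between PB and LEV. It was higher still between PB and VEH with the VEH animal kept that the study excluded for its coverage. The same held with the animal number as a block (closing sections). The log2 fold change of PB against VEH stayed between 0.39 and 0.49 in the 41 fits. Disc1 had a mean of 27.9 estimated counts per library, a level at which its biological coefficient of variation was 17.6%.

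None of the partners of Disc1 passed the test in any comparison. Ndel1, the dynein regulator, had 846 normalized counts at the lowest, 928 at the median and 1037 at the highest in VEH, 833, 900 and 963 in PB, and 885, 939 and 1011 in LEV. It was lower in 13 of 14 PB animals than the VEH mean of their series, by a log2 fold change of -0.06 (SE 0.03, adjusted p = 0.201 in edgeR). Against LEV the difference was -0.07 (SE 0.03, adjusted p = 0.156). Both intervals lay within the fold limit. The residual SD of Ndel1 was at percentile 1.8 of the 500 transcripts nearest to it in level.

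Nde1, its paralog, had medians of 87.7 normalized counts in VEH, 97.3 in PB and 88.2 in LEV, with ranges of 78.8 to 110, 78.0 to 119 and 68.9 to 114. The log2 fold change of PB against VEH was 0.12 (SE 0.08, adjusted p = 0.411 in edgeR). Fez1 had medians of 4332 (VEH), 4282 (PB) and 4432 (LEV), and its log2 fold change was -0.04 (SE 0.03) for PB and 0.01 (SE 0.03) for LEV against VEH. The medians of Dtnbp1 were 270 (VEH), 273 (PB) and 288 (LEV), with log2 fold changes of 0.02 (SE 0.06) and 0.03 (SE 0.06). Pde4b had medians of 420 (VEH), 399 (PB) and 398 (LEV), with log2 fold changes of -0.04 (SE 0.05) for PB and -0.08 (SE 0.05) for LEV. For Nde1, Ndel1, Fez1, Dtnbp1 and Pde4b, all 3 comparisons had 95% intervals within the fold limit.

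**Figure D2:**
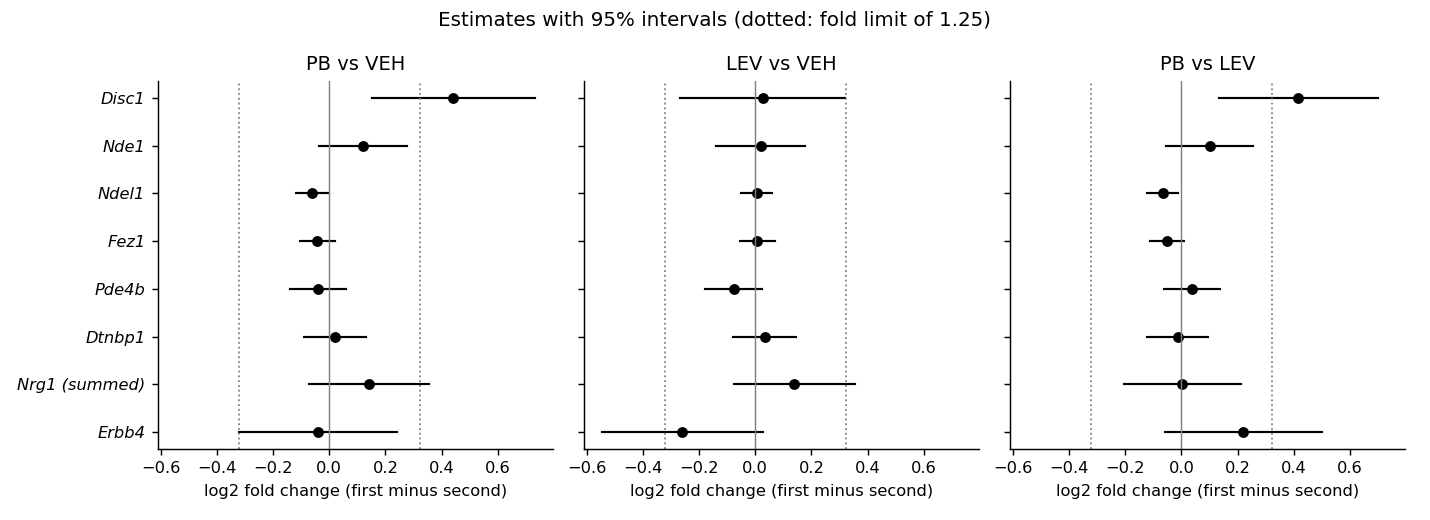
Log2 fold changes with 95% intervals for the 8 member genes in the 3 comparisons (first group minus second, Nrg1 as the sum of its 8 transcripts), with dotted lines at the fold limit of 25%. The interval of Disc1 lies above 0 for PB against VEH (0.15 to 0.73) and against LEV (0.13 to 0.70), and is centred near 0 for LEV against VEH.

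For the ligand Nrg1, the 8 transcripts summed gave 42.3 normalized counts at the lowest, 87.6 at the median and 111 at the highest in VEH, 60.7, 90.8 and 135 in PB, and 66.3, 93.1 and 131 in LEV. The 3 ranges overlapped widely. The log2 fold change was 0.14 (SE 0.11) for PB and 0.14 (SE 0.11) for LEV against VEH, with adjusted p of 0.476 and 0.912 in edgeR. Intervals were 0.952 to 1.28 and 0.949 to 1.28 as folds, both of which reached past the fold limit upwards.

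The transcripts of Nrg1 were less steady than its sum. NM_001271118 held a median of 63.1% of a library's Nrg1 counts over the 41 animals (range 24.6% to 91.0%). NM_001271120 held 8.41% (0.000516% to 57.0%), and it was under 1% in 14 of the 41 animals. NM_001271130 held 8.91% and reached 41.4%. The other 5 transcripts had mean estimated counts of 0.564 to 3.57 per library. NM_001271118, NM_001271119 and NM_001271120 have the same start and end in rn6, so the authors' expectation-maximization step divided reads among them, and their separate values are uncertain.

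As a share of Nrg1, NM_001271120 averaged 18.7% ± 16.5 (SD, n = 13) in VEH animals, 8.79% ± 9.05 (SD, n = 14) after PB and 7.10% ± 9.55 (SD, n = 14) after LEV. The difference from VEH, with series means removed, was -9.82 percentage points for PB and -11.5 for LEV, with permutation p of 0.0649 and 0.0327, two-sided within series. After adjustment over 9 tests both were 0.292. The other 7 tests of shares had adjusted p of 0.292 or more. The edgeR fits of the 3 tested transcripts gave log2 fold changes against VEH of 0.20 and 0.30 for NM_001271118, -0.86 and -1.20 for NM_001271120 and 0.68 and 0.24 for NM_001271130, for PB and LEV in that order, with adjusted p between 0.368 and 0.987.

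**Figure D3:**
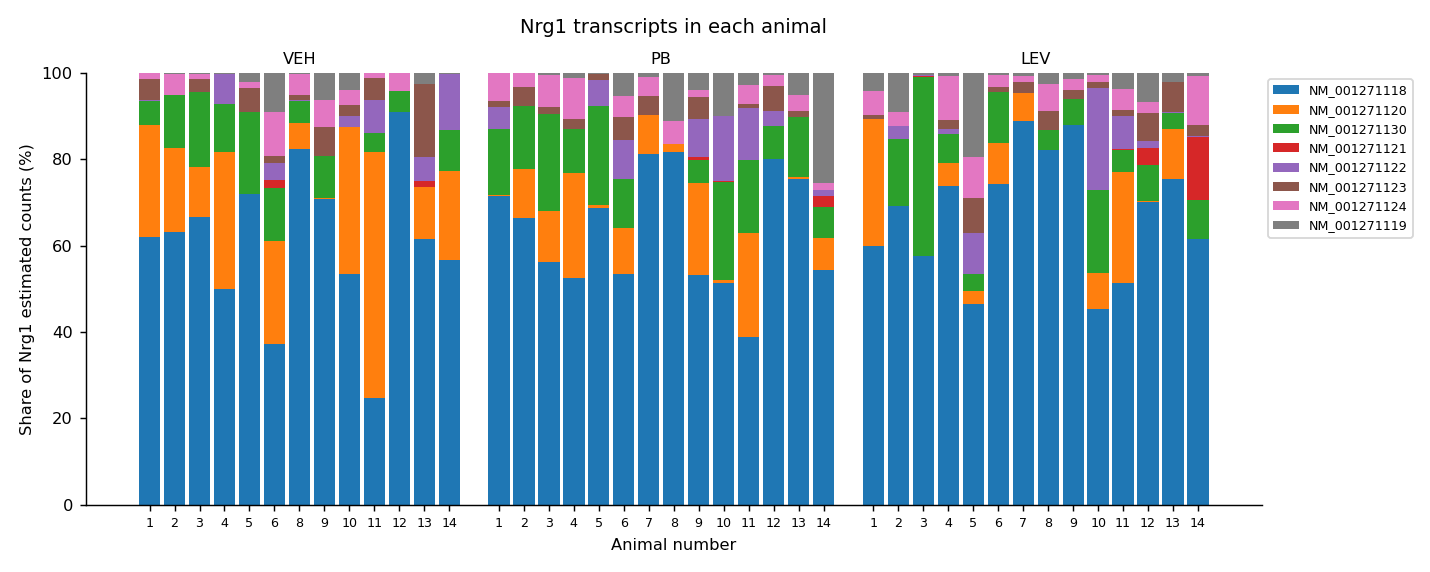
Share of the estimated counts of Nrg1 that each of its 8 transcripts held in each animal, by treatment and animal number (each bar sums to 100%). NM_001271118 is the largest share in most animals, and the share of NM_001271120 is at or near 0 in several animals of each group.

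The receptor Erbb4 was the member whose response to LEV depended on the series. Over all animals its normalized counts were 93.6 at the lowest, 149 at the median and 204 at the highest in VEH, 100, 161 and 196 in PB, and 63.3, 124 and 199 in LEV. The log2 fold change was -0.04 (SE 0.14, adjusted p = 0.909) for PB and -0.26 (SE 0.14, adjusted p = 0.845) for LEV against VEH in edgeR.

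In animals 1 to 6, Erbb4 was 149, 162, 176, 182, 185 and 196 in VEH, and 63.3, 81.5, 84.2, 107, 115 and 132 in LEV. The 2 groups did not overlap there, a pattern in which 2.15% of all transcripts were lower in LEV. PB animals 1 to 6 were at 100, 123, 142, 161, 162 and 172, which overlapped both other groups. In animals 7 to 14, the ranges were 93.6 to 204 in VEH, 100 to 199 in LEV and 105 to 196 in PB, which overlapped throughout.

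On their own, animals 1 to 6 gave a fall in Erbb4 after LEV (log2 fold change -0.84, SE 0.15, adjusted p = 0.00440 in edgeR), in a fit where 1.3% of all transcripts met both limits. Animals 7 to 14 gave 0.20 (SE 0.17, adjusted p = 0.954). The difference between the series was 1.05 (SE 0.24, adjusted p = 0.0201 in the edgeR interaction test), and 0.842% of all transcripts passed that test. Of the 110 transcripts that passed, 99 had an interaction above 0, as Erbb4 had. Those 99 had a median genomic span of 61928 bases and the 11 with an interaction below 0 one of 27312, against 20861.5 over all tested transcripts. Erbb4 spans 1157130 bases, and the part of span in its interaction was not tested. Leaving out single animals kept the adjusted p of the Erbb4 interaction under 0.05 in 40 of 41 fits. Without LEV animal 3 the interaction was 0.95, with an adjusted p of 0.0590. For PB the log2 fold change of Erbb4 was -0.29 (SE 0.15) in animals 1 to 6 and 0.22 (SE 0.17) in animals 7 to 14. The PB interaction was 0.50 (SE 0.24, adjusted p = 0.426 in edgeR), in a test that 0.0689% of all transcripts passed. Mean normalized counts of Erbb4 in animals 1 to 6 and in animals 7 to 14 were 175 and 136 in VEH, 143 and 158 in PB, and 97.4 and 156 in LEV.

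Pde4b, the cAMP phosphodiesterase, differed between the series in the same direction. In animals 1 to 6 it was 420 to 473 in VEH and 309 to 410 in LEV, again without overlap (2.15% of all transcripts, as above), and in animals 7 to 14 it was 359 to 453 and 373 to 472. Its log2 fold change for LEV was -0.25 (SE 0.07, adjusted p = 0.0476 in edgeR) in animals 1 to 6 and 0.07 (SE 0.06) in animals 7 to 14. The former did not reach the fold limit, and 2.64% of all transcripts had an adjusted p under 0.05 there. The interaction was 0.33 (SE 0.09), with an adjusted p of 0.0602 in edgeR and 0.0354 in DESeq2. The share of all transcripts past the DESeq2 interaction test is not given here. No other member had an adjusted p under 0.05 for either interaction.

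**Figure D4:**
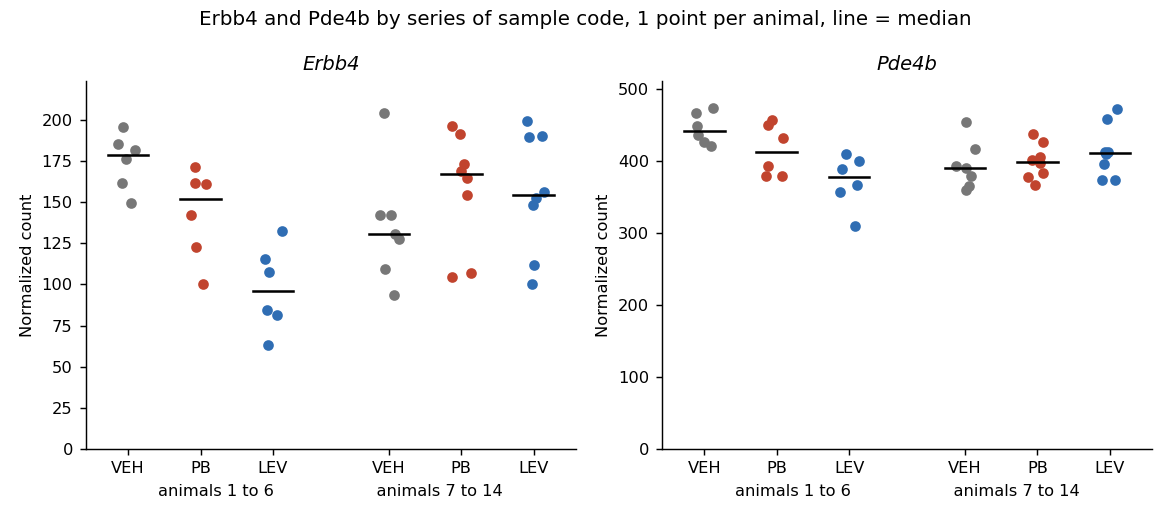
Normalized counts of Erbb4 and Pde4b in each animal by treatment, for animals 1 to 6 and for animals 7 to 14 (line at the median, axes from 0). For Erbb4 the 6 LEV animals of the first series (63.3 to 132) lie under all 6 VEH animals of that series (149 to 196), while the groups overlap in the second series.

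Cell type markers gave these values beside the results for Erbb4 and Disc1. Of the interneuron markers, 14 entries were tested, which were 13 distinct transcripts, since Npy is listed at 2 positions with equal counts. Their summed normalized counts, over all 14 entries, were 16505 to 18505 in LEV and 17164 to 18470 in VEH animals 1 to 6, which overlapped. With the interneuron marker level as a covariate, chosen after the data were seen, the Erbb4 interaction was 1.04 (adjusted p = 0.0240 in edgeR). With the level of choroid plexus markers, it was 1.09 (adjusted p = 0.0134). In animals 1 to 6 the astrocyte sums were 32637 to 37260 in LEV and 38334 to 46047 in VEH, and the endothelial sums 2864 to 3233 and 2400 to 2738, neither with overlap. The sums of oligodendrocyte precursor markers were 7818 to 8774 in LEV and 8759 to 9894 in VEH animals 1 to 6, and 9193 to 10009 and 8450 to 9409 in animals 7 to 14. The LEV interaction had an adjusted p under 0.05 for 5 of 16 astrocyte entries (Slc1a3 and Aqp4 with 2 each, the 2 of Aqp4 with equal counts, and Slc1a2; 4 of the 5 above 0) and for 1 of 6 precursor markers, Gpr17 (0.66, adjusted p = 0.000465 in edgeR), against the 0.842% given above. For the precursor marker Pdgfra it was 0.35 (adjusted p = 0.05004, not under the threshold). No entry of the other 8 lists passed that test. Only the interneuron and choroid plexus levels were entered as covariates, and neither list had an entry past that test. These fits therefore cannot decide the part of cell types in the Erbb4 difference. The part of the astrocyte, endothelial and precursor markers was not tested. Skeletal muscle markers were at 314 to 633 in LEV and 363 to 514 in VEH animals 1 to 6, and at 119 to 202 in all other groups, and their part was not tested either. Between PB and VEH, 4 of the 13 distinct interneuron marker transcripts were lower at an adjusted p under 0.05 (background 3.46% lower), with a median log2 fold change of -0.16 over the 13 and 0.00462 over all transcripts. Of 4 skeletal muscle entries, 3 were lower as well, with a median log2 fold change of -1.25. The excitatory neuron, mature oligodendrocyte and astrocyte lists had 1 lower entry each, and 1 astrocyte entry was higher. The other lists had none past that threshold, with a median of 0.63 for choroid plexus entries. Apart from a choroid plexus covariate (closing sections), the part of these markers in the Disc1 difference was not tested. In bulk tissue, fewer cells of a type and less RNA per cell cannot be told apart.

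Erbb4 and Nrg1, receptor and ligand, and Disc1 with its 5 partners were compared across the 41 animals, as deviations from the mean of each treatment and series. For Erbb4 and Nrg1, Pearson's r was 0.40 (permutation p = 0.0234, adjusted 0.140 over 6 pairs) and Spearman's rho 0.36 (permutation p = 0.0335, adjusted 0.201). Without the 2 animals farthest from the Erbb4 median r was 0.30 (permutation p = 0.103). Leaving them out also narrowed the range of Erbb4, so the lower r cannot decide whether the relation rested on them. In animals 1 to 6 r was 0.46 (permutation p = 0.140), and in animals 7 to 14 it was 0.37 (permutation p = 0.1003). The 5 correlations of Disc1 lay between -0.15 (Fez1) and 0.19 (Dtnbp1), with adjusted permutation p of 0.623 or more.

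The transcripts most like the 3 lead members across animals are given as a description. Those for Erbb4 were Cacna1e (r = 0.85), Myo5a (r = 0.80) and Thsd7a (r = 0.80). Those for Nrg1 were Grik2 (r = 0.72), Tenm2 (r = 0.72) and Pnma8a (r = 0.71), and those for Disc1 were Usp7 (r = 0.65), Rps6ka6 (r = 0.62) and Ncor1 (r = 0.61). The points share libraries and their depth. The LEV interaction of the 3 Erbb4-like transcripts was 0.66, 0.57 and 0.42, with adjusted p of 0.0860, 0.0532 and 0.330 in edgeR.

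The rest of the pathway was examined with 7 lists that held 90 genes, of which 80 were tested with 89 transcripts. None met both limits in any comparison in the edgeR fit, or in DESeq2 against VEH. At an adjusted p under 0.05, 5 transcripts (5.62%) differed between PB and VEH, against a background of 5.39%. Those that fell were the mitochondrial adaptor Trak2 (log2 fold change -0.14, adjusted p = 0.00647), the dynein light chain Dynlt3 (-0.20, adjusted p = 0.00909), the microtubule protein Map1a (-0.17, adjusted p = 0.0293) and the adaptor Grb2 (-0.07, adjusted p = 0.0451), all in edgeR. The ErbB docking protein Gab1 rose (0.14, adjusted p = 0.0175). Of the 5, 3 were in the list of Disc1 interactors, 1 among dynein and dynactin subunits and 1 among ErbB receptors and regulators.

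Between LEV and VEH, 0 of 89 pathway transcripts had an adjusted p under 0.05 in edgeR (0.00766% of all transcripts) and 5 an unadjusted p under 0.05 (5.84% of all transcripts). Between PB and LEV, 3 had an adjusted p under 0.05 (3.37%, background 4.45%), namely Gab1, which was higher in PB (0.14), and Dynlt3 (-0.16) and the phosphodiesterase Pde4a (-0.17), which were lower. The median log2 fold change over the 89 transcripts was -0.00874 for PB and -0.0146 for LEV against VEH, and 0.00462 and 0.000329 over all transcripts. The 7 transcripts of other BLOC-1 subunits, the 2 of the dysbindin paralogs Dbndd1 and Dbndd2 and the 5 of other EGF family ligands had 0 at an unadjusted p under 0.05 in edgeR in all 3 comparisons.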

How the data were processed

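Hippocampal RNA of 42 pups was sequenced. Per the labels and methods, the authors aligned reads to rn6 with STAR 2.7.3a and the deposited values are estimated counts per RefSeq transcript from the Partek E/M algorithm, before normalization. Reads shared by transcripts are divided by this step, so 13.7% of values are not whole. A deposited table of the authors' own comparisons (p-values, adjusted p-values, ratios, fold changes and group means) was not used.

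Rounded counts entered edgeR 4.0.16 under R 4.3.3 (TMM, filterByExpr by treatment, glmQLFit and glmQLFTest). The model held 3 groups and the series as an additive term. The study's own order, subtraction of the batch effect and of its interaction with treatment, then DESeq2, was an alternative (DESeq2 1.42.0). Normalized counts are rounded counts scaled to the mean effective library size (11405252). Permutation tests used 100000 permutations. Other alternatives were DESeq2 on the same counts, its size factors in edgeR, no filter, no series term, an interaction term, each series alone, all 14 VEH animals, counts summed per gene, a choroid plexus covariate, robust dispersion, the animal number as a block and each animal left out in turn. For correlations and shares, labels were also permuted over all animals, the choroid plexus level was taken out by regression and shares were replaced by log2 ratios. For the Erbb4 interaction, leaving out each animal and the covariates (choroid plexus or interneuron marker level) were chosen after seeing the data. Correlations with Nrg3 could not be computed. Each library is 1 animal. Per the study's methods, each treatment group took 1 animal per litter and treatments were balanced within litters, so the groups shared litters. The main fits and the permutation tests did not pair littermates. The scripts were tested on simulated data.

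Members and lists were chosen with earlier results of these data known. All member transcripts are named, with pathway transcripts past both limits and the 3 transcripts most like Disc1, Nrg1 and Erbb4. Pathway transcripts at an adjusted p under 0.05 alone, and Egfr, were named after their values were seen.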

Additional observations from a re-analysis of the deposited data

Results flagged for a closer look

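The VEH animal excluded by its label (animal 7) had 11928895 estimated counts, within the VEH range. Of 16 member items (15 transcripts and the Nrg1 sum), 5 were above and 3 below all 13 other VEH animals. Disc1 was at 60.6 normalized counts, against 13.3 to 34.1 in the 13 VEH animals and at most 39.4 in all 41 animals. Nde1 was at 123 (78.6 to 110 in VEH) and Nrg1 summed at 119 (42.2 to 111). Nrg1 NM_001271119 was at 48.0, against at most 9.61, and NM_001271123 at 17.8, against at most 11.8. Below them were Fez1 at 3326 (4081 to 5093 in VEH), Nrg1 NM_001271118 at 4.18 (23.9 to 72.4) and Dtnbp1 at 240.2 (241 to 306). With this animal kept, the log2 fold change of Disc1 for PB against VEH was 0.29 (SE 0.16, adjusted p = 0.361 in edgeR).

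The LEV response of Erbb4 differed between the series, with a difference of 1.05 on the log2 scale (-0.84 in animals 1 to 6 and 0.20 in animals 7 to 14).

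Of 48 sets of 6 to 8 animals, 1 animal stood apart in 3, where chance gives about 2.4. Fez1 was at 5104 in VEH animal 9 (others of its set 4332 to 4639) and at 4974 in LEV animal 14 (4189 to 4522). Nrg1 summed was at 135 in PB animal 2 (86.0 to 102.2).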

How the results depend on the processing

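Over 33 log2 fold changes of members and their alternatives, apart from the fits without 1 animal, 381 of 401 values with an adjusted p kept direction and side of the call (both limits), 19 changed sign and 1 (Erbb4, LEV, animals 1 to 6) became a call; the cause was not tested. Alone, animals 1 to 6 gave 1 called member (Erbb4) and 1 other pathway transcript (Egfr, -0.59) for LEV in place of 0. In that fit 1.3% of all transcripts met both limits. DESeq2 called 2 member interactions with LEV (Erbb4 and Pde4b, 0.33) in place of 1. The share of all transcripts past that DESeq2 test is not given here, so this count has no background. Leaving out 1 animal gave 0 to 1 called members for PB against VEH (Disc1 in 6 of 41 fits) and for PB against LEV (Disc1 in 3), and 0 for LEV.

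Signs turned in animals 7 to 14 alone for PB against VEH (Dtnbp1 -0.0526, Pde4b 0.0204, Erbb4 0.22), for LEV against VEH (Ndel1 -0.0356, Dtnbp1 -0.0262, Pde4b 0.0689, Fez1 -0.0486, Erbb4 0.20) and for PB against LEV (Pde4b -0.0484, Nrg1 summed -0.0605). In animals 1 to 6 alone they turned for LEV against VEH (Nde1 -0.0196, Nrg1 NM_001271130 -0.26, Disc1 -0.0229, Nrg1 summed -0.0318) and for PB against LEV (Nrg1 NM_001271118 0.0131). With all 14 VEH animals Nde1 was -0.0141 and Disc1 -0.12 for LEV, and with the choroid plexus covariate Nde1 was -0.00943. Correlations of Disc1 turned for Nde1 (-0.0683, animals 7 to 14) and Ndel1 (-0.0518 without the choroid plexus level, -0.0392 in animals 1 to 6), and the NM_001271130 share for LEV was -0.0131 as a log2 ratio.

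Leaving out 1 animal turned the sign of values near 0. The ranges were -0.0932 to 0.000152 for Erbb4 (PB), and for LEV -0.0045 to 0.0428 (Nde1), -0.0079 to 0.0171 (Ndel1), -0.0238 to 0.0786 (Disc1) and -0.0039 to 0.0250 (Fez1). For PB against LEV they were -0.0421 to 0.0096 (Dtnbp1) and -0.0399 to 0.0429 (Nrg1 summed).

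With the animal number as replicate block, 0 members were called in each comparison, Disc1 was 0.43 (adjusted p = 0.118 in edgeR) for PB and -0.0046 for LEV, and 55, 0 and 63 of all transcripts were called for PB, LEV and PB against LEV in place of 79, 0 and 76. The labels do not say that a number marks a shared litter. Of 40 same-numbered pairs, 10 correlated above 0.1 in their deviations and 20 below 0 (r from -0.332 to 0.329). Of 41 animals, 7 correlated best with their own number. No values for pairs of different numbers are given, so these counts cannot decide whether a number marks a litter. DESeq2 gave no adjusted p for Disc1 between PB and either other group, and the study's order of steps gave none between PB and VEH. At a mean of 27.9 counts, the 95% interval of Disc1 for PB against VEH spanned 1.11- to 1.66-fold.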
